A study of Mus musculus with 21 samples.

Results

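The genes described here are the 78 mouse genes named Mrpl or Mrps followed by a number, which code for the proteins of the mitochondrial ribosome. They were taken from the 19096 genes of a deposited heart expression table by a match of the gene name to Mrpl or Mrps, digits and at most 1 further letter. All 78 had enough reads to be tested, among 15216 genes tested in all. By subunit, 51 code for large-subunit proteins (Mrps30 and Mrps18a among them, despite their names), 26 for small-subunit proteins, and 1, Mrps36, for a protein that is now counted as a part of the 2-oxoglutarate dehydrogenase complex. In the systematic naming of ribosomal proteins 46 of them count as having a bacterial counterpart and 31 as specific to mitochondria. Mrps18a and Mrps18b are counted with the latter, although they are paralogs of Mrps18c, which has the bacterial counterpart.

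The hearts came from 21 male C57BL/6NJ mice that entered the study at 8 to 10 weeks of age and ate chow or a diet with 60% of its energy as fat for 10 weeks. Each mouse was given an adeno-associated virus that carries renin (AAV-Renin) or a control injection behind the eye, and hearts were taken 6 weeks later. The sample labels call the control groups "novirus" and the study's description calls them null vector. The groups were chow control with 4 hearts, chow renin with 6, high-fat control with 6 and high-fat renin with 5, and each labelled replicate gave 1 library. The study sought the heart transcripts that change when diet and renin together model the heart failure in which the ejection fraction is preserved, or in either alone. The labels give neither the promoter of the vector nor the dose, and whole heart tissue was used, so fewer cells of a type and less RNA per cell cannot be told apart.

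Mitochondria keep a ribosome of their own, which translates the mRNAs of the mitochondrial genome. All of those mRNAs code for core subunits of the respiratory chain and of ATP synthase. The ribosome's RNAs are also made in the mitochondrion, but its proteins are encoded in the nucleus, translated in the cytosol and imported. Heart muscle has a dense mitochondrial network, and inherited defects of several of these proteins cause cardiomyopathy in people.

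Library totals ranged from 18571206 to 29014523 estimated reads, and the highest chow control total (21223358) was below the lowest of any other group (22606674). The 78 members together held between 53513 and 82415 reads in a library, which was 0.264% to 0.321% of its reads. The mean share was 0.297% for chow control, 0.280% for chow renin, 0.283% for the high-fat diet alone and 0.284% for diet plus renin. All 8 cardiomyocyte markers had reads in every group. Their summed level was 55330 to 66920 CPM (reads scaled to a common library size) in chow control. It was 51080 to 53890 CPM in chow renin, 52090 to 61140 with the high-fat diet alone and 45290 to 52370 with both. Of these markers 2 of 8 fell in chow renin against chow control and 5 of 8 fell in high-fat renin against either control. In high-fat renin against chow renin 4 of 8 fell and 1 rose, and their part in the results was not tested. Markers of the central nervous system (10 genes, 10 of 10 with reads in each group, none at 0) summed to 209 to 346 CPM in chow renin and to 61.9 to 111 CPM over the other 3 groups, so chow renin stood apart in them. All 10 were called higher in chow renin than in chow control, and their part in the results was not tested beyond a fit with their mean log2 level as a covariate, given with each comparison it changed. The summed level of 4 atrial markers varied inside every group, from 31.0 CPM in high-fat control replicate 6 to 1102 CPM in chow control replicate 3.

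Levels were compared between genes on the TPM scale, which corrects for transcript length and library size. Mean TPM over the 21 libraries ran from 4.70 to 353, a 75.1-fold span, with a median of 31.2 and quartiles of 20.1 and 51.6. That median stood at the percentile 85.3 of the 11156 nuclear protein-coding genes with at least 1 TPM. The 92 cytosolic ribosomal protein genes had a median of 190 TPM. The 5 highest members were Mrpl42 (353 TPM), Mrps21 (186), Mrpl33 (117), Mrps23 (106) and Mrpl30 (97.4). The 5 lowest were Mrpl19 (4.70), Mrpl23 (7.47), Mrpl35 (7.65), Mrpl1 (8.31) and Mrps30 (8.76). Subunits of 1 particle thus differed widely in mRNA level. A single transcript held over 90% of the reads of 43 members, and Mrpl55, at 40.0%, was the most divided between transcripts.

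**Figure D1:**
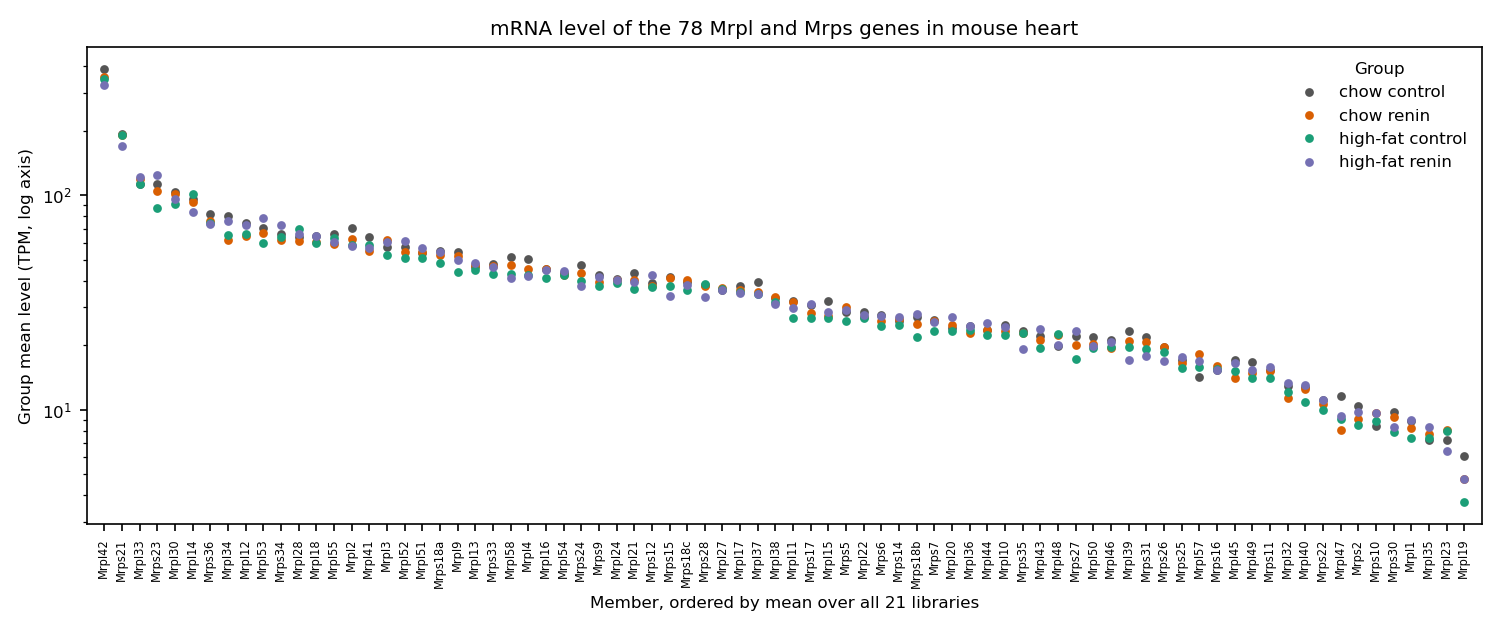
Mean TPM (log axis) of each of the 78 members in the 4 groups, with members ordered by their mean over all 21 libraries. Mrpl42 is highest at 353 TPM and Mrpl19 lowest at 4.70, and for most members the 4 group means lie close together relative to that span.

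Renin on chow came with lower mRNA of 21 of the 78 members. Relative to chow control, 75 had a lower estimate, 21 fell past the threshold (edgeR quasi-likelihood test, Benjamini-Hochberg adjusted p under 0.05 over all genes tested) and 0 rose. Of all genes tested, 3.36% fell and 10.1% rose, 13.5% in either direction, while 26.9% of the members fell. The median log2 fold change of the members was -0.18, against -0.026 for all genes tested and -0.072 for the 5561 genes with a mean of at least 20 CPM, of which 7.07% fell. Large-subunit members made up 18 of the 21 calls, Mrps2 and Mrps9 were the small-subunit ones, and Mrps36 was the other. The medians of the subunits were close, at -0.18 for the large and -0.16 for the small. The size of these falls rests in part on the scaling between libraries. The scaling factors (TMM) were 1.035 to 1.090 in chow renin and 0.970 to 1.031 in chow control, with no overlap. As a plain share of reads the members went from 0.297% to 0.280%, and the high-fat groups, at 0.283% and 0.284%, were nearly as low.

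Mrpl1, which forms the stalk where spent tRNA leaves the large subunit, had 25.6, 25.4, 23.6 and 24.8 CPM in the chow control hearts. In chow renin its lowest, median and highest values were 18.9, 19.9 and 21.1 CPM. All 6 chow renin hearts were below all 4 controls, and the change on the log2 scale was -0.31 ± 0.066 (SE; edgeR adjusted p = 0.00133). Mrpl45, which holds the ribosome to the inner membrane near the exit of the peptide tunnel, had 49.8, 52.0, 39.3 and 44.3 CPM in chow control. It had 33.8, 35.1 and 37.6 CPM (lowest, median, highest) in chow renin, again with no overlap, for a change of -0.39 ± 0.083 (edgeR adjusted p = 0.0018).

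Mrpl12 forms the flexible stalk that recruits translation factors and also binds the mitochondrial RNA polymerase. It had 101.9, 100.1, 83.6 and 93.8 CPM in chow control and 71.5, 77.1 and 84.3 CPM (lowest, median, highest) in chow renin. Of the 6 renin hearts 5 lay below every control, and the change was -0.30 ± 0.072 (edgeR adjusted p = 0.00478). The largest estimate was that of Mrpl34, a small rRNA-binding protein of the large subunit, at -0.47 ± 0.12 (edgeR adjusted p = 0.00963). Its controls were spread, at 37.0, 37.2, 23.5 and 29.7 CPM, and the chow renin values (19.8, 23.2 and 25.8) overlapped the lowest of them.

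The other members with the largest falls on chow were Mrpl19, Mrpl47 and Mrps2. Mrpl19, at the face where the subunits meet, averaged 23.97 ± 3.01 CPM in the chow controls (SD, n = 4) and 18.6 ± 0.937 (n = 6) in chow renin, a change of -0.37 ± 0.10 (SE; edgeR adjusted p = 0.0155). Mrpl47, at the tunnel exit, went from 18.96 ± 2.01 to 14.9 ± 0.585 CPM, a change of -0.34 ± 0.086 (edgeR adjusted p = 0.00691). For Mrps2, of the small subunit, the means were 23.8 ± 2.53 and 19.2 ± 1.31 CPM and the change -0.31 ± 0.087 (edgeR adjusted p = 0.0162). In each of these genes all 6 chow renin hearts were below all 4 controls.

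The number of calls varied with the scaling, with the genes in the fit and with single libraries. It was 12 with upper-quartile factors and 13 with no filter on low counts. Without chow control replicate 1, 2 or 4 there were 7, 6 and 10 calls, without chow renin replicate 1 or 3 there were 11 and 10, and with only genes of at least 20 CPM in the fit there were 2. With the mean log2 CPM of the central nervous markers as a covariate 0 members were called and the median became 0.060, and that score and the chow renin group cannot be told apart, since every chow renin heart was above every other heart in it. Without chow control replicate 1 the calls of Mrpl19, Mrpl34 and Mrps2 were lost, and without replicate 2 those of Mrpl34, Mrpl47 and Mrps2, with adjusted p up to 0.136 for Mrps2.

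Promoters are shown for Mrpl45, Mrpl12 and Mrpl1, which were called lower on chow with renin in every fit that left out 1 library, and for Mrpl39, described below. Sequences are from RefSeq on GRCm38.p6, 5′ to 3′ on the gene's strand, in the 250 bases before the annotated start, and stop short of annotated exons except for the 30 bases of Mrpl39. GENCODE M21 has longer transcripts of Mrpl1 and Mrpl39 that begin upstream of the RefSeq start, so these 2 stretches lie inside the GENCODE span of their genes, between exons for Mrpl1 and in the first exon for Mrpl39. Capitals mark a match on either strand to the NRF1 motif, searched as GCGC and TGCGC with any 1 base between them. NRF1, a nuclear activator of many mitochondrial protein genes, binds this kind of sequence.
Mrpl45, chr11:97315466-97315715, plus strand, which are bases 250 to 1 before the start: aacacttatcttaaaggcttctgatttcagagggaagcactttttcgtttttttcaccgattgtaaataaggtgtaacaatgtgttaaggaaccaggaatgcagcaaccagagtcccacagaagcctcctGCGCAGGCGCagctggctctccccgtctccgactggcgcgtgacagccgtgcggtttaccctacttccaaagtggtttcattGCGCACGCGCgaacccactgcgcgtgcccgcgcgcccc
Mrpl12, chr11:120484387-120484586, plus strand, bases 250 to 51: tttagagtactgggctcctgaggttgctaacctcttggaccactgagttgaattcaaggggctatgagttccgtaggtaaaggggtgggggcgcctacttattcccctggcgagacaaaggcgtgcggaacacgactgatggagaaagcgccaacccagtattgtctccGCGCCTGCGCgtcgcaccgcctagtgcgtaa
Mrpl1, chr5:96209865-96210064, plus strand, bases 250 to 51: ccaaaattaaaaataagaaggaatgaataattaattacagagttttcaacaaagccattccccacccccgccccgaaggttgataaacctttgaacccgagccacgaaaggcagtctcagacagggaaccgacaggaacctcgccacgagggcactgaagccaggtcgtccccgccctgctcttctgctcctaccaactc
Mrpl39, chr16:84735350-84735379, minus strand, bases 135 to 106: aaggagaggcGCGCATGCGCccccgcgtgg
Mrpl45 holds 2 such matches, beginning 120 and 38 bases before the start, Mrpl12 holds 1 at 81 bases, Mrpl39 holds 1 at 125 bases, and Mrpl1 has no match in its window.

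Over the 69 members with a promoter entry, 14.5% held the NRF1 motif in the 250 bases before a start, against 8.40% of 11393 tested genes and 4.23% of all 27025 genes with an entry. The motif CCGGAAG, read by ETS factors such as GABP, was in 26.1% of members, 14.1% of tested genes and 7.83% of all genes. AAGATGGC, a form of the YY1 motif, was in 5.80%, 2.20% and 1.83%. Both strands were searched, and the motifs do not contain each other. Among members called lower in chow renin 33.3% of 18 held any of the 3 motifs, against 47.1% of the 51 not called. The NRF1 motif alone was in 3 of the 18 (16.7%), which are Mrpl12, Mrpl39 and Mrpl45 shown above, against 13.7% of the 51. A match is a run of letters and not a measured site.

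**Figure D2:**
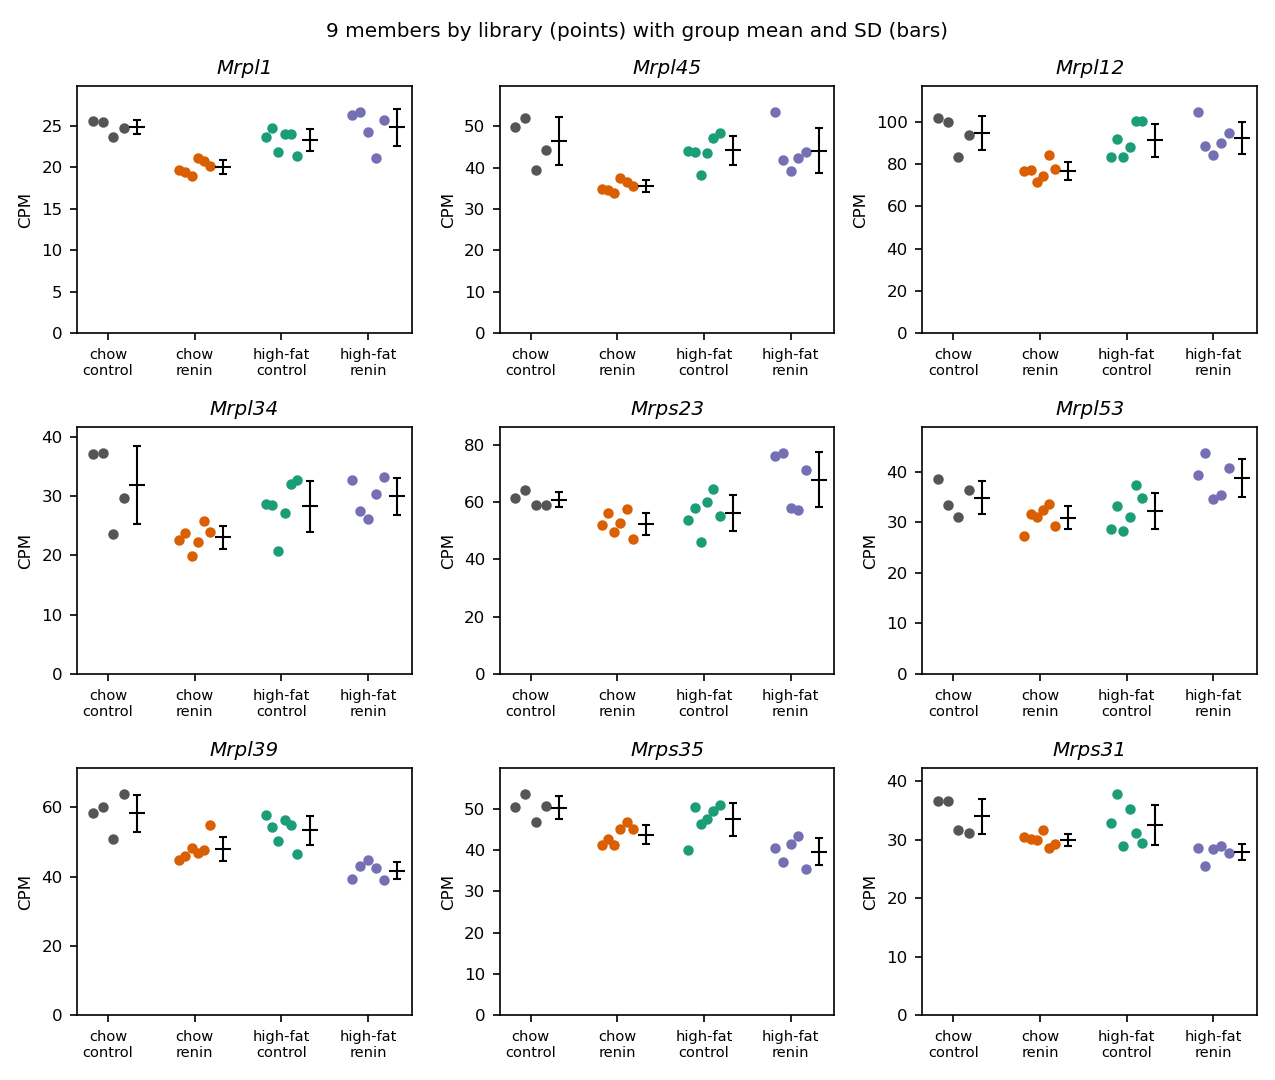
CPM of 9 members in each library (points), with the group mean and SD (bars), on axes that start at 0. Mrpl1 and Mrpl45 of chow renin lie below every chow control heart, and Mrpl39 of high-fat renin (39.1 to 44.9 CPM) lies below every control heart of either diet.

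On the diet alone no member passed the test. In high-fat control against chow control 0 of 78 members were called by edgeR, 0 by DESeq2 and 4 had an unadjusted p under 0.05. Of all genes 0.0131% rose and 0.0526% fell, 0.0657% in all. The members' median was -0.030, with 27 higher and 51 lower estimates. The 3 members with the smallest p were Mrpl48, a large-subunit protein found only in mitochondria (33.7 ± 3.04 CPM in chow control, n = 4, and 38.9 ± 2.85 in high-fat control, n = 6; edgeR adjusted p = 0.282), Mrps30 (38.2 ± 1.86 and 33.5 ± 2.45; adjusted p = 0.287) and Mrpl28 (60.3 ± 4.65 and 71.5 ± 10.8; adjusted p = 0.342). The values of each of these overlapped between the groups.

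With both renin and the high-fat diet, 9 members were lower than in chow control, and Mrpl39 and Mrps35 had the largest falls. None rose, and the 9 are 11.5% of the members, where 4.25% of all genes fell, 4.05% rose and 8.29% did either. The 9 were Mrpl39, Mrps35, Mrps31, Mrps24, Mrps15, Mrpl42, Mrpl58, Mrps30 and Mrpl4. The median of the 78 was -0.037 (all genes tested, 0.015), and 53 had a lower estimate.

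Mrpl39 is a large-subunit protein related in sequence to threonyl-tRNA synthetase, and its gene spans chr16:84717576-84735742 on the minus strand of GRCm38 (GENCODE M21). It had 58.4, 60.0, 50.9 and 63.8 CPM in chow control. It had 39.3, 43.0, 44.9, 42.6 and 39.1 CPM in high-fat renin. Every high-fat renin heart was below every control, and the change was -0.48 ± 0.075 (SE; edgeR adjusted p = 0.000659), the largest fall among members in this comparison. In high-fat control the lowest, median and highest values were 46.4, 54.6 and 57.9 CPM, and in chow renin 44.8, 47.2 and 54.8 CPM.

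Mrps35 and Mrps31 are small-subunit proteins found only in mitochondria. Mrps35 had 50.4, 53.5, 46.7 and 50.7 CPM in chow control. In high-fat renin it had 40.5, 37.2, 41.5, 43.4 and 35.5 CPM. The groups did not overlap, and the change was -0.35 ± 0.073 (edgeR adjusted p = 0.00524). Mrps31 likewise fell without overlap, from 33.95 ± 3.04 CPM (SD, n = 4) to 27.8 ± 1.36 (n = 5), with a change of -0.29 ± 0.075 (SE; edgeR adjusted p = 0.0202).

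Mrpl42, the most abundant member, averaged 175 ± 13.7 CPM in chow control and 146.7 ± 7.18 in high-fat renin, a change of -0.26 ± 0.068 (edgeR adjusted p = 0.0226). Mrps24 fell by 0.30 on the log2 scale (SE 0.085; edgeR adjusted p = 0.0311) and Mrps15 by 0.29 (SE 0.084; adjusted p = 0.0357). All 5 high-fat renin hearts lay below all 4 controls in each of these genes. Mrpl58, which frees peptides from stalled ribosomes, averaged 34.8 ± 2.32 and 29.4 ± 2.50 CPM, with overlap and a change of -0.24 ± 0.076 (edgeR adjusted p = 0.046).

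The count was 2 without chow control replicate 1 or 2, 3 without replicate 4, 4 without high-fat renin replicate 1 or 2 and 5 without replicate 5; with a score of day-side minus other clock genes as a covariate (group means 3.603 in chow control and 2.86 in high-fat renin) it was 0, and 0 of all genes were called. In that fit the estimate of Mrpl39 was -0.34, those of Mrps35 and Mrps31 -0.29, that of Mrpl42 -0.27, that of Mrps24 -0.26, that of Mrpl58 -0.14 and that of Mrps15 -0.093. With the central nervous score in the fit the count was 5, and the calls of Mrpl42, Mrpl58 and Mrps24 were lost. The calls of Mrpl39 and Mrps35 held in all 9 fits that left out 1 library; those of Mrpl42 and Mrps31 were lost in 3, of Mrps24 in 5, of Mrps15 in 6 and of Mrpl58 in 7, with adjusted p up to 0.135. In the authors' deposited table of high-fat renin, whose reference group is not given in the sources used here, 9 members had an adjusted p under 0.05, all lower, where 4.22% of all genes were lower. In the authors' deposited table, made from the same hearts, Mrpl39 had the smallest p, with a log2 fold change of -0.42, followed by Mrps31, Mrps24, Mrpl42 and Mrpl58. Mrps35 did not pass in the authors' deposited table (-0.19, adjusted p = 0.077), and Mrpl2 did (-0.21, adjusted p = 0.0394).

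Renin was also compared within the high-fat diet, using hearts that the chow comparison does not share. There 7 members fell and 3 rose (8.97% and 3.85% of members, against 5.08% and 6.07% of all genes, 11.1% in either direction). The median was -0.016 and 46 of 78 estimates were lower, but without high-fat control replicate 5 or 6 the medians were 0.0058 and 0.0039, with 37 and 38 lower, so the members as a group had no steady direction here. Under other scalings the split was 2 higher and 9 lower (edgeR RLE factors) or 2 higher and 10 lower (upper-quartile factors). Those that fell were Mrpl39, Mrps35, Mrpl14, Mrps15, Mrps28, Mrpl42 and Mrps31, and those that rose were Mrpl53, Mrps23 and Mrps18b. Of the 21 members lower with renin on chow and the 7 lower with renin on the high-fat diet, Mrpl39 and Mrpl42 were in both lists, 9.5% of the first and 28.6% of the second. Over all genes tested 95 were lower in both, 18.6% of the 511 lower on chow and 12.3% of the 773 lower on the high-fat diet.

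Mrpl39 had 5 of 5 high-fat renin hearts below all 6 high-fat controls, a change of -0.35 ± 0.068 (SE; edgeR adjusted p = 0.00259). Mrpl14, which lies at the face of the large subunit that meets the small one, averaged 47.5 ± 8.92 CPM in high-fat control (SD, n = 6) and 36.4 ± 3.87 in high-fat renin (n = 5), a change of -0.38 ± 0.10 (edgeR adjusted p = 0.0186). Its high-fat control values were spread from 38.2 to 60.8 CPM and overlapped the other group. Mrps28 changed by -0.33 ± 0.098, Mrps15 by -0.27 ± 0.076, Mrps35 by -0.26 ± 0.066 and Mrps31 by -0.22 ± 0.068 (edgeR adjusted p = 0.0317, 0.0257, 0.0135 and 0.0337).

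Mrps23, a small-subunit protein found only in mitochondria, had 53.6, 58.0, 46.1, 60.0, 64.8 and 55.3 CPM in high-fat control. It had 76.3, 77.0, 58.1, 57.1 and 71.1 CPM in high-fat renin. Replicates 1, 2 and 5 were above every control and replicates 3 and 4 were among them, for a change of 0.27 ± 0.085 (edgeR adjusted p = 0.0414). Mrpl53, which sits at the base of the stalk that carries Mrpl12, rose from 32.3 ± 3.59 to 38.7 ± 3.78 CPM (0.26 ± 0.080; edgeR adjusted p = 0.0362). Mrps18b, a small-subunit paralog of Mrps18c, rose from 21.5 ± 2.25 to 25.5 ± 1.99 CPM (0.25 ± 0.081; edgeR adjusted p = 0.0463).

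The summed atrial markers were 31.0 to 768 CPM (median 80.5) in high-fat control and 118 to 1005 CPM (median 697) in high-fat renin, and 0 members were called with the log2 of that sum, or with the clock score, as a covariate. The higher sum was that of Nppa, the atrial natriuretic peptide that ventricles also make under load, with medians of 77.8 and 576 CPM; the medians of Myl7 (0.925 and 0.674), Myl4 (1.92 and 1.98) and Sln (0.156 and 0.279) stayed low in both, and 1 of the 4 markers was called. The count was 1 when the fit held only these 2 groups, 6 without high-fat control replicate 4, 2 without high-fat renin replicate 1, 3 without replicate 2 and 2 without replicate 5. Of the 3 rises, Mrpl53 was lost in 6 of 11 fits without 1 library and Mrps23 and Mrps18b in 7 each, among them the fits without high-fat renin replicate 1, 2 or 5, with adjusted p up to 0.118, 0.16 and 0.136. Of the falls, Mrps35 was lost in 1 such fit, Mrpl14 in 2, Mrps15 in 4 and Mrps28 and Mrps31 in 5 each, while Mrpl39 was called in all 11. With the central nervous score in the fit 10 members were called, but Mrps23 was not.

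**Figure D3:**
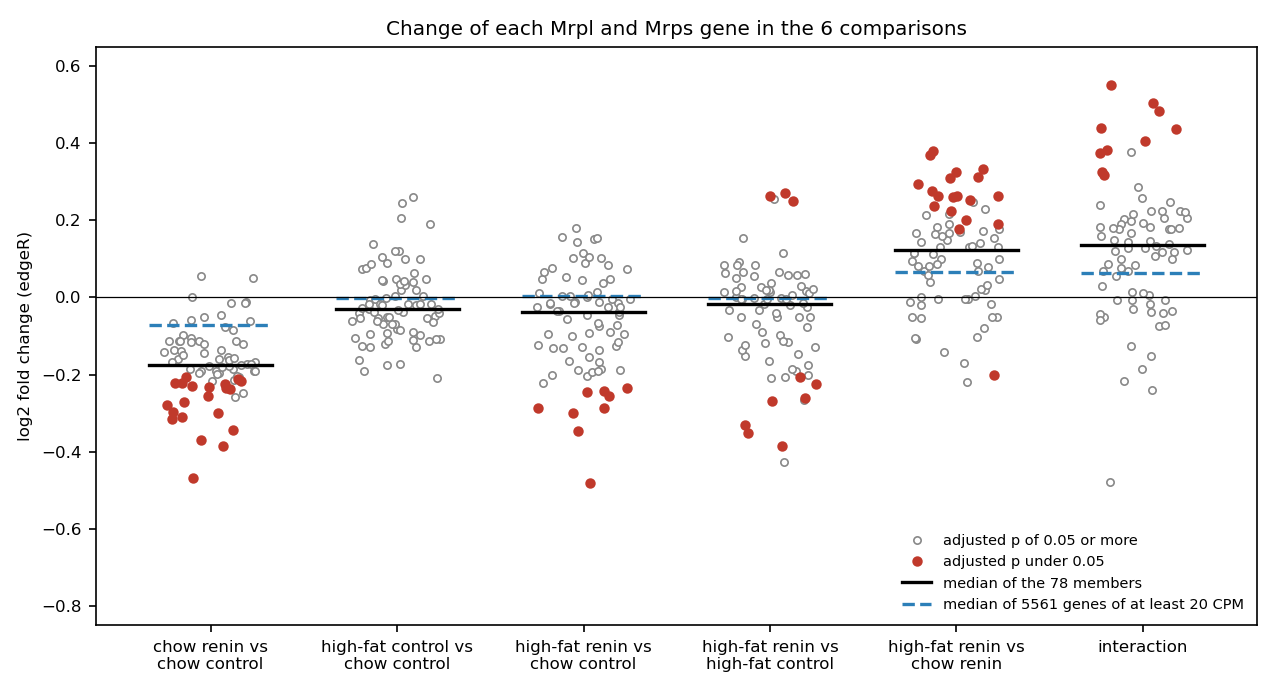
log2 fold change of the 78 members (points; filled where the edgeR adjusted p is under 0.05) in each comparison, with the members' median (solid line) and that of 5561 genes with at least 20 CPM (dashed line). Members lie mostly below 0 in chow renin against chow control (median -0.18) and mostly above 0 in high-fat renin against chow renin (0.12), as in the interaction (0.14).

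The diet under renin was tested by high-fat renin against chow renin. Here 18 members rose (23.1%) and 1 fell, Mrpl39, where 9.80% of all genes rose, 12.8% fell and 22.6% did either. Among genes of at least 20 CPM 18.2% rose, which is nearer to the members' share. The members' median was 0.12, against 0.017 for all genes tested and 0.066 for those of at least 20 CPM, and 60 of 78 estimates were higher. The split was 7 higher and 3 lower with upper-quartile factors, and 6 higher and 3 lower with only genes of at least 20 CPM in the fit.

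The members with the largest rises were Mrpl34 (0.38 ± 0.11), Mrps23 (0.37 ± 0.085), Mrps34 (0.33 ± 0.10), Mrpl53 (0.32 ± 0.080), Mrpl45 (0.31 ± 0.078) and Mrpl1 (0.31 ± 0.061), with edgeR adjusted p from 0.000573 for Mrpl1 to 0.0205 for Mrps34. Mrpl1 had 26.3, 26.6, 24.2, 21.1 and 25.7 CPM in high-fat renin, so all but replicate 4 were above the highest chow renin heart. Mrps34, a mitochondria-specific protein of the small subunit, had 61.1, 59.1, 52.5, 56.8 and 54.5 CPM in high-fat renin and 41.8, 44.1 and 50.9 CPM (lowest, median, highest) in chow renin, with no overlap. Mrpl12 rose by 0.26 ± 0.068 and Mrps18b by 0.26 ± 0.080. Mrpl39 was 41.8 ± 2.54 CPM in high-fat renin and 48.0 ± 3.51 in chow renin, a change of -0.20 ± 0.068 (edgeR adjusted p = 0.0351).

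There were 8 calls without chow renin replicate 1, 7 without chow renin replicate 3 or high-fat renin replicate 1, 9 without high-fat renin replicate 5, and 8 with the clock score as a covariate. Mrpl1, Mrpl45, Mrpl53 and Mrps23 were called in all 11 fits without 1 library, whereas Mrpl12 was lost in 1, Mrps34 and Mrpl39 in 3 each, Mrpl34 in 4 and Mrps18b in 5. With the central nervous score in the fit 0 were called and the median became -0.070; all 10 central nervous markers were called lower in this comparison.

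The interaction asks whether renin acted differently on the high-fat diet than on chow, by subtracting the log2 change on chow from that on the high-fat diet. It was called in 10 members, all with a positive value, which is 12.8% of the members. Of all genes, 3.14% were called positive, 7.30% negative and 10.4% either, and of genes of at least 20 CPM 6.17% were positive. Of the 78 estimates 59 were positive, with a median of 0.14 (all genes tested, 0.0075; genes of at least 20 CPM, 0.063). The 10 were Mrpl34, Mrps27, Mrps23, Mrps18b, Mrpl53, Mrpl1, Mrpl45, Mrps2, Mrpl43 and Mrpl12.

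The estimates on each diet differed in kind among these 10. For Mrpl34, Mrpl1, Mrpl45, Mrps2 and Mrpl12 renin came with a called fall on chow and with no call on the high-fat diet, where estimates ran from -0.0043 for Mrpl45 to 0.091 for Mrpl1. For Mrps23, Mrpl53 and Mrps18b the call was the rise on the high-fat diet, beside uncalled estimates of -0.21, -0.17 and -0.19 on chow. Mrps27 and Mrpl43 passed in neither diet alone.

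The interaction of Mrpl1 was 0.41 ± 0.090 (SE; edgeR adjusted p = 0.00351). Its group means were 24.8 ± 0.888 CPM in the chow controls (SD, n = 4) and 19.98 ± 0.830 (n = 6) in chow renin. They were 23.3 ± 1.34 CPM (n = 6) with the high-fat diet alone and 24.8 ± 2.28 (n = 5) with both. Chow renin was thus the low group in CPM. In TPM, which corrects for transcript length, the means of Mrpl1 were 8.889 in chow control and 8.268 in chow renin. They were 7.374 TPM with the high-fat diet alone, the lowest, and 9.004 with both. The interaction was not tested in TPM. The interaction was 0.48 ± 0.12 for Mrps23, 0.44 ± 0.12 for Mrps18b and 0.44 ± 0.12 for Mrpl53 (edgeR adjusted p = 0.0117, 0.0159 and 0.0162). The largest estimates, 0.55 ± 0.17 for Mrpl34 and 0.50 ± 0.15 for Mrps27, had adjusted p of 0.034 and 0.033. Mrps27 carries pentatricopeptide repeats, an RNA-binding fold. It had 48.6, 44.99, 31.5, 28.7 and 38.3 CPM in high-fat renin, a spread wider than that of any other group, whose values lay between 27.8 and 39.0 CPM.

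The count was 3 without chow control replicate 1, 4 without chow control replicate 2, chow renin replicate 1 or 3, high-fat control replicate 3 or high-fat renin replicate 1, and 6 without chow renin replicate 6 or high-fat renin replicate 5. It was 4 with upper-quartile factors, 1 with only genes of at least 20 CPM and 0 with the central nervous score in the fit, where the median was -0.079. Mrpl1, Mrps18b and Mrps23 were called in all 21 fits without 1 library, whereas Mrpl53 was lost in 1, Mrpl45 in 6, Mrpl34 and Mrpl43 in 9 each, Mrps27 in 10, Mrps2 in 13 and Mrpl12 in 14.

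**Figure D4:**
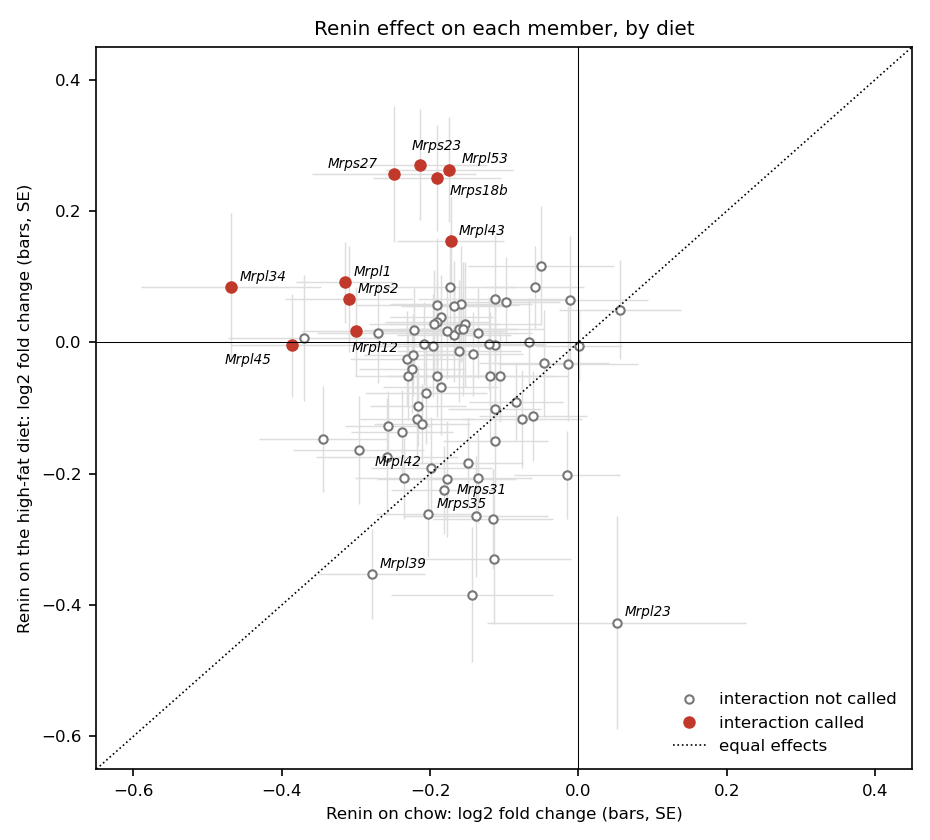
The log2 fold change with renin on chow (horizontal axis) and on the high-fat diet (vertical axis) for each member, with SE bars; filled points have a called interaction and the dotted line marks equal effects. The called members lie above the line, Mrpl1 at -0.31 and 0.091 among them, while Mrpl39 lies near it at -0.28 and -0.35.

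Mrpl3, Mrps14, Mrps16, Mrps22 and Mrpl44 were looked at for the links of their human forms to cardiomyopathy or respiratory deficiency, links that other members have too. Mrpl3 (73.2 ± 2.07 CPM in chow control), Mrps14 (30.8 ± 2.15), Mrps16 (20.05 ± 2.26) and Mrps22 (12.5 ± 1.32) passed in none of the 6 comparisons, with smallest adjusted p of 0.216, 0.118, 0.566 and 0.35. Mrpl44, a relative of RNase III, was higher in high-fat renin (36.0 ± 3.201 CPM, n = 5) than in chow renin (31.3 ± 1.78, n = 6; 0.20 ± 0.068, edgeR adjusted p = 0.0333). Mrps12, at the decoding centre, was also called higher there, at 22.4 ± 2.45 against 18.7 ± 1.001 CPM (0.26 ± 0.089; edgeR adjusted p = 0.0363). Leaving out a library ended the call of Mrpl44 in 7 of 11 fits and that of Mrps12 in 8 of 11, with adjusted p up to 0.124 and 0.127.

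Mrps18a, Mrps18b and Mrps18c are paralogs of each other. Mrps18b was called in 3 comparisons. Mrps18a (40.7 ± 3.29 CPM in chow control, 35.7 ± 1.82 in chow renin, n = 4 and 6) and Mrps18c (16.2 ± 0.865 and 15.7 ± 1.14) were called in none, and a difference between the paralogs was not tested. Mrps36 fell in chow renin, from 38.7 ± 3.31 to 33.5 ± 1.77 CPM (-0.21 ± 0.065; edgeR adjusted p = 0.0307), a call that 6 of 10 fits without a library did not make, with adjusted p up to 0.162. In all, 40 of the 78 members were called in at least 1 comparison (51.3% of members, against 33.6% of all genes tested) and 38 in none.

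Other genes of mitochondrial translation were counted from lists of named factors. Of 14 translation factors, which start, extend and end the peptide chain, 14 had lower estimates in chow renin than in chow control (median -0.18), but 1 was called, Tsfm, the exchange factor of the elongation factor that brings tRNA (-0.22 ± 0.075; edgeR adjusted p = 0.0495). In the interaction 14 of 14 were positive (median 0.23) and 2 were called, Taco1 (0.75 ± 0.20; adjusted p = 0.0171), a translational activator of cytochrome c oxidase subunit I, and Tsfm (0.35 ± 0.10; adjusted p = 0.0278). Ribosomal proteins with other names, such as Dap3 and Ptcd3, were lower in chow renin in 5 of 5 estimates, with 0 called by edgeR and 3 at an unadjusted p under 0.05.

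Of 25 ribosome assembly and rRNA modification factors, 2 fell in chow renin and 0 rose: Mtg2, a GTPase of large-subunit assembly (-0.31 ± 0.097; edgeR adjusted p = 0.0338), and Mrm2, a methyltransferase of the large rRNA (-0.29 ± 0.092; adjusted p = 0.0388). In high-fat renin against chow control Mtg2 (-0.39 ± 0.10; adjusted p = 0.0181) and Mettl17 (-0.34 ± 0.094; adjusted p = 0.0256), which acts in small-subunit assembly, fell. Within the high-fat diet Rbfa and Mettl17 fell (-0.31 ± 0.072 and -0.33 ± 0.085; adjusted p = 0.00797 and 0.0138) and Trub2, a pseudouridine synthase, rose (0.38 ± 0.091; adjusted p = 0.00959).

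Of 17 mitochondrial tRNA synthetases, which load tRNAs with amino acids, 16 had lower estimates in chow renin and 4 fell: Mars2 (-0.33 ± 0.090), Sars2 (-0.32 ± 0.10), Rars2 (-0.29 ± 0.092) and Aars2 (-0.28 ± 0.078), with edgeR adjusted p from 0.0151 to 0.0388. In high-fat renin against chow control Sars2, Mars2 and Vars2 fell (-0.36 ± 0.11, -0.33 ± 0.094 and -0.23 ± 0.067; adjusted p from 0.0334 to 0.0364). Of 8 genes that copy and transcribe mitochondrial DNA, 0 were called in chow renin by edgeR (4 at an unadjusted p under 0.05). Of 3 genes listed under insertion of the new proteins into the membrane, Letm1 fell in chow renin (-0.26, edgeR adjusted p = 0.011). Its place on that list does not show that Letm1 itself inserts proteins. Tfam, which packs mitochondrial DNA, and Tefm, its elongation factor, were called in the interaction (0.35 ± 0.11 and 0.39 ± 0.12; adjusted p = 0.0347 and 0.0384).

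Among 12 regulators of mitochondrial biogenesis, Esrra, an orphan nuclear receptor that drives energy genes with PGC-1, fell in chow renin from 168 ± 16.1 CPM (SD, n = 4) to 138 ± 10.2 (n = 6; -0.27 ± 0.079, edgeR adjusted p = 0.0195). It also fell with renin within the high-fat diet (-0.25 ± 0.075; adjusted p = 0.0301). Myc, a growth factor-induced activator of ribosome genes, rose in chow renin from 4.29 ± 0.768 to 9.84 ± 0.726 CPM (1.20 ± 0.11; adjusted p = 3.06e-08) and stood at 4.80 ± 0.405 CPM in high-fat renin. Nrf1 and Gabpa, whose motifs were searched above, were not called in chow renin (adjusted p = 0.97 and 0.546).

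The other ribosomal genes gave a contrast in counts. Of 90 cytosolic ribosomal protein genes tested, 0 were called in chow renin against chow control by edgeR (2 at an unadjusted p under 0.05), with a median of -0.045. Of the 13 mRNAs of the mitochondrial genome, which the mitochondrial ribosome translates, 0 were called there (1 at an unadjusted p under 0.05) and 12 had lower estimates, with a median of -0.091. In high-fat control against chow control 13 of 13 had higher estimates (median 0.23) with 1 called, and with renin within that diet 13 of 13 had lower estimates (median -0.18) with 1 called. A difference between any of these lists and the 78 members was not tested.

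By library, the mean log2 CPM of the 78 members, set relative to the chow control mean, ran from -0.11 to 0.068 in chow control and from -0.23 to -0.11 in chow renin. On the high-fat diet it ran from -0.19 to 0.0996 without renin and from -0.12 to -0.021 with it. All 6 chow renin hearts were thus below the lowest control of their diet, by little in the case of replicate 4. The lowest heart of chow control and of high-fat control was replicate 3 in both, and each was also the highest of its group in summed atrial markers, at 1102 and 768 CPM. The renin groups went the other way. In high-fat renin, replicate 1 was the highest in both the members (-0.021) and the atrial sum (1005 CPM). In chow renin, replicate 6 was the lowest in both (-0.23 and 57.1 CPM). The part of atrial tissue in the members' level was not tested beyond the fit with the atrial level as a covariate. That fit gave 22 calls in chow renin against chow control and, as given above, left no call with renin within the high-fat diet. The atrial level includes Nppa, which ventricles also make under load.

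**Figure D5:**
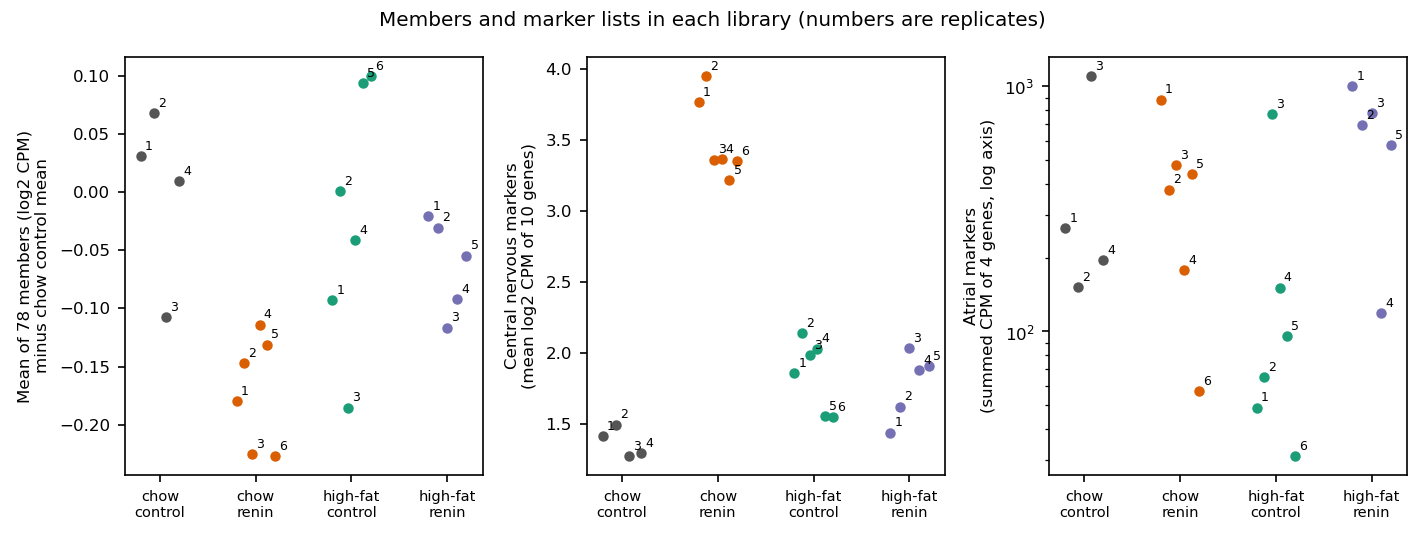
For each library (points, numbered by replicate), the mean of the 78 members in log2 CPM relative to chow control, the mean log2 CPM of 10 central nervous markers, and the summed CPM of 4 atrial markers (log axis). In the first panel chow renin spans -0.23 to -0.11 and lies below all chow controls, in the second it is above every other group, and the atrial sum varies within each group.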

How the data were processed

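For each of the 21 hearts the authors deposited a transcript table with the read estimates of Salmon 1.10.2 (version per the submitters' processing notes, which also name GRCm38, mm10 and DESeq2 1.40.2). Per the file headers, it holds estimated counts, not normalized, and the deposited tables also give TPM. A further table deposited by the authors gives 19096 genes a normalized signal per library, with the log2 fold change and adjusted p-value of 1 comparison; it supplied the gene names and the authors' own comparison. How its signal was scaled is not given in the sources used here, and no sample column went unmapped.

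Transcripts were matched to GENCODE M21 on GRCm38 (98.0% of 119215; the rest held 0.854% to 0.925% of reads and were left out), summed to genes and rounded. The tests were planned on whole-number counts, and the files held estimated ones. edgeR 4.0.16 in R 4.3.3 was used with TMM factors (0.886 to 1.09), filterByExpr by group (15216 genes, 99.96% of reads), a single fit over all libraries with a term per group, robust glmQLFit and the quasi-likelihood F test. P-values were adjusted by Benjamini and Hochberg's method across the 15216 genes, with calls at adjusted p under 0.05. The SE is the absolute log2 fold change over the square root of F. Group values are TMM-normalized CPM as mean ± SD. Plots were drawn with matplotlib 3.10.9. The fit was tested on simulated data.

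Each comparison names the 6 called members with the largest change in each direction, or the 3 with the smallest p where fewer than 3 were called, the 5 highest and lowest by TPM, and 12 members with a known special role; the related lists name up to 4 called genes. Nrf1, Gabpa, Mrps9, Mrps30, Mrpl2, Mrpl4, Mrpl42 and Mrpl43, where they fall outside this, were named after their values were seen. The members, lists and tests were chosen with earlier results of these data known. Alternatives were other scalings (RLE, upper quartile), the DESeq2 1.42.0 Wald test, no filter on low counts, no mitochondrially encoded genes, thinning to the smallest library, clock and central nervous scores as covariates, the replicate number as a block, only the groups compared, and each library left out. The atrial level as a covariate and a fit of genes with at least 20 CPM were added after seeing the data. Comparisons with chow control share those 4 hearts. Groups share replicate numbers, but the hearts are of different mice, and the numbers were not taken to pair them.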

Additional observations from a re-analysis of the deposited data

Results flagged for a closer look

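Of 96 sets of values examined for a library far from the others of its group, 2 had one, where chance gives about 1 in 20. Mrpl39 in chow renin replicate 6 was 54.8 CPM, above the 44.8 to 48.2 CPM of the other 5 hearts of its group. The members' share of all reads was 0.321% in high-fat control replicate 6, the highest of its group, whose lowest was 0.267%.

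The effect of renin differed between the diets by a test of the interaction in 10 members, whose values on the log2 scale were 0.41 for Mrpl1, 0.32 for Mrpl12, 0.55 for Mrpl34, 0.33 for Mrpl43, 0.38 for Mrpl45, 0.44 for Mrpl53, 0.44 for Mrps18b, 0.38 for Mrps2, 0.48 for Mrps23 and 0.50 for Mrps27. Of all genes tested, 3.14% were called with a positive interaction, 7.30% with a negative one and 10.4% with either.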

How the results depend on the processing

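The counts of called members were recomputed in 143 alternatives, of which 99 stayed within 1.5 times the count reported. For chow renin against chow control (21 calls) the count was 12 with upper-quartile factors, 13 with no filter on low counts, 2 with only genes of at least 20 CPM (chosen after seeing the data) and 0 with the central nervous score added. For high-fat renin against chow control (9) it was 0 with the clock score and 5 with the central nervous score. Within the high-fat diet (10) it was 6 with no filter, 0 with the clock score, 0 with the atrial level (chosen after seeing the data) and 1 with only those 2 groups in the fit. For high-fat renin against chow renin (19) it was 10 with upper-quartile factors, 8 with the clock score, 0 with the central nervous score and 9 with genes of at least 20 CPM. For the interaction (10) it was 4, 0 and 1 with upper-quartile factors, the central nervous score and genes of at least 20 CPM. Leaving out 1 library gave 6 to 28 calls in chow renin, 2 to 12 in high-fat renin against chow control, 2 to 13 within the high-fat diet, 7 to 20 against chow renin and 3 to 11 in the interaction. High-fat control against chow control had 0 calls in every alternative run. The cause was not tested in any of these.

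Among the 48 named pairs of a member and a comparison, the called estimates that changed sign, 12 in all, did so with the central nervous score added to the fit. They were Mrpl12 (0.079), Mrpl19 (0.34) and Mrpl45 (0.094) in chow renin; Mrpl12 (-0.045), Mrpl45 (-0.082), Mrpl53 (-0.12), Mrps12 (-0.42) and Mrps34 (-0.20) for high-fat renin against chow renin; and Mrpl12 (-0.075), Mrpl43 (-0.00042), Mrpl45 (-0.12) and Mrpl53 (-0.12) in the interaction. The cause was not tested. The SE of the first 3 was 0.24, 0.32 and 0.27.

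With the replicate number as a block the counts were 27 in chow renin, 10 in high-fat renin against chow control, 0 in high-fat control, 9 within the high-fat diet, 23 against chow renin and 11 in the interaction. The block ended the calls of Mrpl39 in high-fat renin against chow renin, Mrps28 within the high-fat diet and Mrps27 in the interaction. The numbers were not taken to pair the hearts, which are of different mice. The deviations of 28 same-numbered pairs correlated at 0.092 on average, 11 of them over 0.1, against -0.019 and 21 of 136 in other pairs. Of 21 hearts, 7 correlated best with their own number. Whether same-numbered hearts had anything in common was not tested beyond the block fit. On depth, thinning to the smallest library left 15, 8, 10, 14 and 8 calls in the 5 comparisons that had any, in the order chow renin, high-fat renin, within the high-fat diet, against chow renin and interaction.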
